A study of Mus musculus with 6 samples.

Results

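The erythroid precursor genes Car1, Car2, Rhd, Alas2, Ermap, Tfrc, Blvrb, Slc4a1 and Klf1 were followed in RNA of LT-HSCs, the long-term haematopoietic stem cells that sustain all blood lineages after transplantation. They were 9 of the 21761 genes in the count table, and they were chosen by name as red cell lineage genes other than globins. A stem cell that enters this lineage passes through progenitors and nucleated precursors before the red cell loses its nucleus. On the way it takes up iron through the transferrin receptor, builds haem from glycine and succinyl-CoA, and assembles a membrane with anion exchanger, Rh and other blood group proteins. KLF1, together with GATA1, is known to switch on many of these genes, and most of them are low or silent in stem cells, with Car2 a known exception.

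IMP1 is the RNA-binding protein encoded by Igf2bp1, abundant in fetal and scarce in adult tissues. The IMP1 group was Rosa26 I/+;Mx1-Cre tg/+, with an IMP1 knock-in at Rosa26 that Cre switches on, and the Control group was Rosa26 +/+;Mx1-Cre tg/+, with 3 biological replicates each. In both groups CD45.2 marrow was moved into lethally irradiated CD45.1/2 hosts, poly(I:C) was given, and 200 CD45.2+ LSK CD150+ CD48- CD34- cells were sorted per library 8 weeks after the last injection. The Mx1 promoter that drives Cre responds to interferon, so both groups carried Cre and had the same induction. Age, sex, and whether replicates came from separate donors or hosts were not given, so p-values measure the spread between these libraries.

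The IMP1 libraries held 50220629 to 67083116 counts and the Control libraries 25749898 to 27338450, on average 2.26 times as many in the IMP1 group, so depth moved with genotype. Igf2bp1 had 1870, 2084 and 2016 counts in IMP1 1, 2 and 3, against 0, 0 and 1 in Control 1, 2 and 3, which checks the labels. Of 12 marker genes of LT-HSC surface and identity, 0 were at 0 counts in any library, and their summed level was 3518 to 4103 counts per 1000000 (CPM) in IMP1 libraries and 3304 to 3468 in Control libraries. Among T cell genes, Cd3e had 3 counts in IMP1 2 and 0 elsewhere, Cd4 had 315 counts in IMP1 3 and 0 elsewhere, and Cd8a had 9, 200 and 61 counts in IMP1 1, 2 and 3, against 40, 70 and 26 in Control 1, 2 and 3. Cd48 RNA stood at 26.8, 7.86 and 3.31 CPM in IMP1 libraries, against 18.1, 1.86 and 2.84 CPM in Control libraries, although the sort took CD48- cells. Cd34 RNA stood at 141 to 213 CPM in IMP1 and 263 to 317 CPM in Control cells, although the sort took cells without CD34 on the surface. The library IMP1 1 stood apart for some of the genes described here. Car1, Rhd and Ermap were 10.1, 89.04 and 5.60 times as high there as in the next highest library. Alas2 was lowest of the IMP1 group there, and Slc4a1 had 1 count there against 52 in Control 1. Results that rest on IMP1 1 are given with and without it.

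Of the 9 genes, 6 passed the filter on low counts and were tested: Car2, Alas2, Ermap, Tfrc, Blvrb and Klf1. The other 3, Car1, Rhd and Slc4a1, had too few libraries with counts and are described by their counts. By edgeR's quasi-likelihood test with Benjamini-Hochberg adjustment over 12807 genes, 0 of the 6 passed an adjusted p of 0.05, where 0.211% of all tested genes did (0.0703% higher and 0.141% lower in IMP1 cells). Without IMP1 1, 0 of the 6 passed, where 0.0155% of tested genes did. At an unadjusted p under 0.05, 3 of the 6 (Alas2, Ermap and Tfrc) were higher in IMP1 cells and 0 were lower, where 6.67% of all tested genes were higher and 7.63% lower, 14.3% in all. With limma-voom 0 of the 6 were called. DESeq2, run without that filter, called Car1, Ermap and Tfrc higher (3 of the 9), where it called 6.7% of genes in all and 2.96% higher. DESeq2 gave Rhd no adjusted p. Of the 6 tested genes, 2 (Alas2 and Ermap) had all IMP1 libraries above all Control libraries and 0 had them all below, where 10.7% of tested genes were higher and 11.1% lower without overlap, 21.9% in all. Levels below are CPM scaled by the trimmed mean of M values (TMM), and log2 fold changes are IMP1 over Control. In these bulk libraries, a difference in the number of cells of a type and a difference in RNA per cell cannot be told apart.

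**Figure D1:**
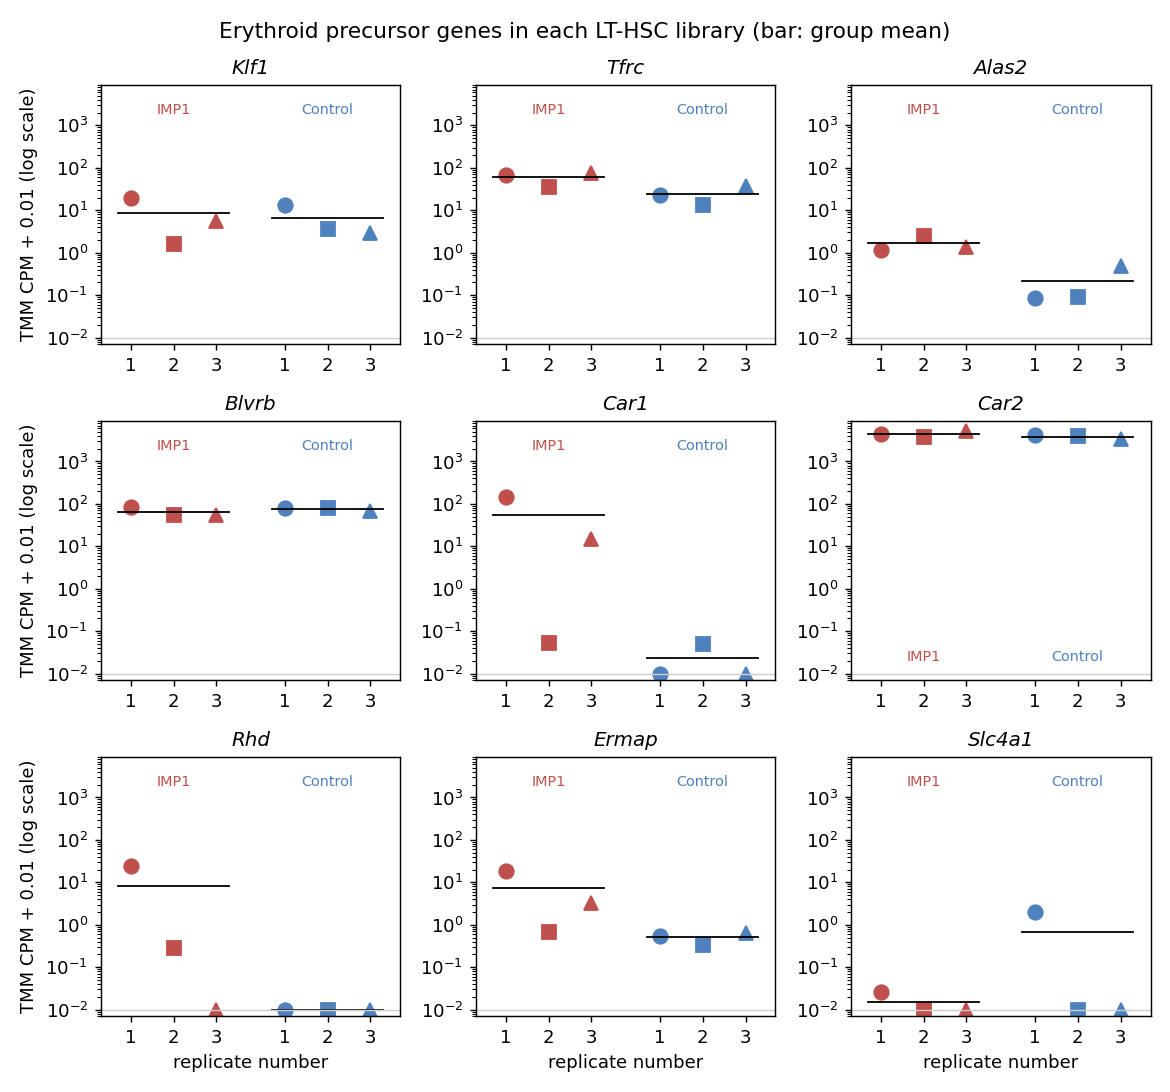
TMM-scaled CPM plus 0.01 of the 9 genes (log scale) in each library, with IMP1 libraries in red on the left and Control libraries in blue on the right; points are libraries 1 to 3, the bar is the group mean, and the grey line is the value of 0 counts. IMP1 1 is the highest library for Car1, Rhd, Ermap, Blvrb and Klf1, while Car2 lies between 3330 and 5150 CPM in all 6.

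To show what lies before the start of some genes that were high in IMP1 1, the 250 bases upstream of the annotated start of Rhd, Ermap and Klf1 are printed. Those of Alas2, which was not highest in that library, are printed too. Blvrb was also highest in IMP1 1, and its windows are described below without being printed. Windows were available for 6 of the 9 genes, are credited to RefSeq on the GRCm38.p6 build and are written 5′ to 3′ on the strand of the gene. Capitals mark matches, on either strand, to the GATA motif (GATAA or GATAG with A or T in front) or to the KLF motif CCNCNCCC, and overlapping matches run together.
Rhd, chr4:134864286-134864535, plus strand: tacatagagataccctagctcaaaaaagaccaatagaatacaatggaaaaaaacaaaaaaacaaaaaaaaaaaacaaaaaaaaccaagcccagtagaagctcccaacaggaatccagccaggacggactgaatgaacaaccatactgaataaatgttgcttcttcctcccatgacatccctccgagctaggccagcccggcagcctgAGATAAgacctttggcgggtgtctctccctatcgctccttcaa
Ermap, chr4:119189996-119190245, minus strand: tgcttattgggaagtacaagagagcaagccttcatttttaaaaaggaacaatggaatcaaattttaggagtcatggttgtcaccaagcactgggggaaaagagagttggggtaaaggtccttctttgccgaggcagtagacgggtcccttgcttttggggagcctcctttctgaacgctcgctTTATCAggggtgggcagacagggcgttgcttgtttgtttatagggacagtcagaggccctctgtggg
Klf1, chr8:84901732-84901981, plus strand: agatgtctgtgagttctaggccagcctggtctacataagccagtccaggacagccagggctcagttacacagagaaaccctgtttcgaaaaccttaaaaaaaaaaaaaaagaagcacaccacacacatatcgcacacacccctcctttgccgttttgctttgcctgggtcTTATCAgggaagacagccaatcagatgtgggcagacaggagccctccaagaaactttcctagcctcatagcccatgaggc
Alas2, chrX:150547167-150547416, plus strand: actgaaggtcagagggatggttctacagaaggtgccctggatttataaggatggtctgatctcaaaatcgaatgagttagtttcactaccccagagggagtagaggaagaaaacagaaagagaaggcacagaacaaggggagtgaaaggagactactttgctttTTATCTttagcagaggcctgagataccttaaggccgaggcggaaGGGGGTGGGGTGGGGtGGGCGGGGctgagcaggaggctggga

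Each of these 4 windows held 1 GATA match. It opened 43 bases before the start in Rhd, 67 in Ermap, 80 in Klf1 and 86 in Alas2, and read on the plus strand in Rhd and on the minus strand in Ermap, Klf1 and Alas2. A KLF match was found 4 times in Alas2, some overlapping one another, and 0 times in Rhd, Ermap and Klf1. Both windows of Tfrc held 0 GATA matches, with 3 KLF matches in one and 2 in the other. For Tfrc the bases after the start were not found in an annotated transcript of the gene, so its start is less certain. Of the windows of Blvrb 1 held a GATA match and the other 4 KLF matches. Of 32851 annotated windows of this length, 26.5% held a GATA match, 45.9% a KLF match and 8.19% both. The 4 printed genes were picked from those with windows, so their matches form no share to set beside these. A match describes letters and is not a site shown to be bound in these cells.

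Klf1 encodes the erythroid Kruppel-like factor, which activates globin, haem and membrane genes. It stood at 19.01, 1.57 and 5.59 CPM in IMP1 1, 2 and 3, against 13.5, 3.64 and 2.88 CPM in Control 1, 2 and 3. The first library of each group was the highest, and the groups overlapped over most of their range. The log2 fold change was 0.38 (SE 0.95, edgeR adjusted p = 0.899), and without IMP1 1 it was −0.90 (SE 0.99, adjusted p = 0.762). Without Control 1 it was 1.42 (adjusted p = 0.642). The sign of the difference in Klf1 thus turned on IMP1 1, and neither value passed the threshold.

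The iron and haem genes came next. Tfrc, the transferrin receptor CD71 through which cells take up iron, stood at 69.5, 36.2 and 73.9 CPM in the IMP1 libraries, against 23.2, 13.4 and 37.7 CPM in the Control libraries. Means were 59.9 ± 20.6 CPM in IMP1 and 24.8 ± 12.2 CPM in Control cells (SD, n = 3 each). IMP1 2 lay just under Control 3, so the groups touched, and the other IMP1 libraries were above all Control libraries. The log2 fold change was 1.27 (SE 0.42, edgeR adjusted p = 0.239). Without IMP1 1 it was 1.16 (SE 0.48, adjusted p = 0.357), so the size of the difference in Tfrc changed little without that library. DESeq2 gave an adjusted p of 0.0408 for Tfrc, the lowest of 17 alternatives, of which the highest was 0.429.

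Alas2 encodes the erythroid form of 5-aminolevulinate synthase, which makes the first committed intermediate of haem in red cell precursors. It was scarce in every library, with 75, 175 and 71 counts in IMP1 1, 2 and 3, against 2, 2 and 12 counts in Control 1, 2 and 3. These counts are 1.18, 2.53 and 1.37 CPM in IMP1 cells and 0.0751, 0.0791 and 0.480 CPM in Control cells. All IMP1 libraries were above all Control libraries, and IMP1 1 was the lowest of the IMP1 group. After all libraries were thinned to 25749898 counts, Alas2 kept 30, 73 and 39 counts in IMP1 1, 2 and 3, against 2, 2 and 12 in the Control libraries. The log2 fold change was 2.98 (SE 1.08, edgeR adjusted p = 0.275), and 3.20 (SE 1.33, adjusted p = 0.357) without IMP1 1. Without Control 3, which held 12 of the 16 Control counts, it was 4.41 (adjusted p = 0.291). Over 17 alternatives the adjusted p of Alas2 lay between 0.171 and 0.496. Alas2 shares part of its span with Apex2 in the reference, and the strand setting of the counting is unknown, so that reads of either gene may have been counted for the other. Apex2 stood at 16.6, 12.4 and 11.3 CPM in the IMP1 libraries, against 17.5, 16.9 and 26.2 CPM in the Control libraries (log2 fold change −0.59, SE 0.35, edgeR adjusted p = 0.505).

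Blvrb encodes biliverdin reductase B, which also reduces flavins and is abundant in red cells. It stood at 86.4, 53.3 and 53.5 CPM in the IMP1 libraries, against 81.1, 78.4 and 67.9 CPM in the Control libraries. IMP1 1 was the highest of all 6, while IMP1 2 and 3 were below every Control library. The log2 fold change was −0.23 (SE 0.23, edgeR adjusted p = 0.709), and −0.50 (SE 0.20, adjusted p = 0.346) without IMP1 1.

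The carbonic anhydrases Car1 and Car2 turn carbon dioxide and water into bicarbonate, and Car1 is a marker of committed erythroid progenitors. Car1 had 9341, 3 and 754 counts in IMP1 1, 2 and 3, against 0, 1 and 0 counts in Control 1, 2 and 3. Its level was 147, 0.0433 and 14.5 CPM in the IMP1 libraries, against 0, 0.0396 and 0 CPM in the Control libraries. IMP1 1 and IMP1 3 were far above the rest, IMP1 1 was 10.1 times IMP1 3, and IMP1 2 was at the level of Control 2. IMP1 1 held 92.5% of the Car1 counts of its group. Over the groups, 10098 counts in IMP1 and 1 in Control cells gave a ratio of 4198, with an exact 95% counting interval of 753 to 165832. Without IMP1 1 the ratio was 480, with an interval of 85.9 to 18988, and it then rested on IMP1 3. In a fit without the low-count filter the edgeR adjusted p of Car1 was 0.115, and 0.123 without IMP1 1. DESeq2 gave 0.000834. Such intervals cover counting error only and leave out the spread between libraries. Copies made by amplification may also have been counted as separate reads.

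Car2, by contrast, was among the abundant transcripts of every library. It stood at 4431, 3808 and 5149.7 CPM in the IMP1 libraries, against 4149, 4078 and 3329.9 CPM in the Control libraries. The groups overlapped, with IMP1 3 the highest library and Control 3 the lowest. The log2 fold change was 0.21 (SE 0.12, edgeR adjusted p = 0.496), and 0.22 (SE 0.15, adjusted p = 0.594) without IMP1 1. Of 16 genes of the carbonic anhydrase family, 9 were tested in edgeR and 0 were called. In edgeR 0 had an unadjusted p under 0.05, where 14.3% of all tested genes did. DESeq2 called 1 (Car1, untested in edgeR), where it called 6.7% of all genes. Their median log2 fold change was −0.12. Car9, a membrane-bound form and the next most abundant of the tested family, stood at 17.03 ± 5.56 CPM in IMP1 and 30.8 ± 18.5 CPM in Control cells (SD, n = 3 each; edgeR adjusted p = 0.459).

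Among the membrane genes, Rhd encodes the Rh protein of the red cell surface. It had 1555, 19 and 0 counts in IMP1 1, 2 and 3, against 0, 0 and 0 counts in Control 1, 2 and 3. Its level in IMP1 1 was 24.4 CPM, 89.04 times that of IMP1 2, and 98.8% of its IMP1 counts were in IMP1 1. Set against a floor of 3 counts over the Control group, 1574 counts put Rhd 218-fold higher in IMP1 cells. The exact 95% lower counting limit of the ratio was 177. Without IMP1 1, the 19 counts, all in IMP1 2, put Rhd 4.02-fold above that floor, with a lower limit of 2.96. In the fit without the low-count filter the edgeR adjusted p of Rhd was 0.261, and 0.542 without IMP1 1.

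Ermap encodes erythroblast membrane-associated protein, which carries the Scianna blood group in humans. It stood at 18.6, 0.649 and 3.31 CPM in IMP1 1, 2 and 3, against 0.526, 0.317 and 0.640 CPM in Control 1, 2 and 3. IMP1 2 lay barely above Control 3, IMP1 3 was the second highest library, and IMP1 1 was 5.60 times IMP1 3. The log2 fold change was 3.92 (SE 1.23, edgeR adjusted p = 0.218). Without IMP1 1 it was 2.00 (SE 1.19, adjusted p = 0.533). The ratio of mean levels, IMP1 over Control, was 15.2 with IMP1 1 and 4.01 without it. DESeq2 gave an adjusted p of 0.0123 with all libraries.

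Slc4a1 encodes band 3, the anion exchanger of the red cell membrane, which rises late in erythroid maturation. It had 1, 0 and 0 counts in IMP1 1, 2 and 3, against 52, 0 and 0 counts in Control 1, 2 and 3. Its counts were thus almost all in Control 1, at 1.95 CPM, and IMP1 1, the library highest in Car1, Rhd and Ermap, held 0.0157 CPM of it. The ratio of Control to IMP1 was 125, with an exact counting interval of 21.5 to 5034, and it rested on Control 1. In the fit without the low-count filter the edgeR adjusted p of Slc4a1 was 0.380.

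**Figure D2:**
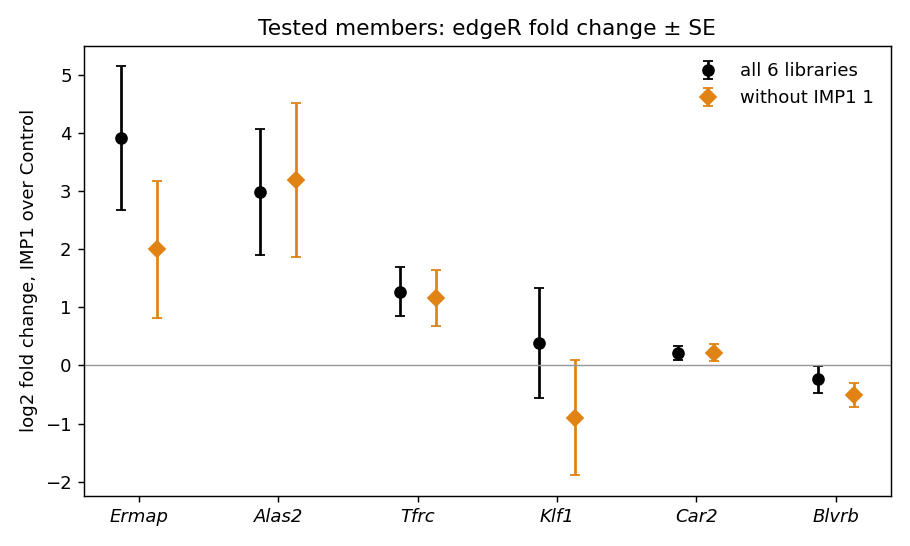
log2 fold change (IMP1 over Control) ± SE from edgeR for the 6 tested genes, with all 6 libraries (black circles) and without IMP1 1 (orange diamonds). Without IMP1 1, Ermap moved from 3.92 to 2.00 and Klf1 from 0.38 to −0.90, while Alas2 stood at 2.98 and 3.20, Tfrc at 1.27 and 1.16 and Car2 at 0.21 and 0.22.

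The genes did not share 1 profile over the libraries. Across the 6 libraries, on the log2 CPM scale and as a description, Pearson's r was 0.97 between Car1 and Ermap, 0.83 between Ermap and Tfrc and 0.79 between Alas2 and Tfrc. It was −0.65 between Alas2 and Blvrb and −0.27 between Alas2 and Klf1, and −0.57 to 0.54 between Slc4a1 and the other 8 genes. These libraries also share their depth difference by genotype. Thinned to the same library total, the same number of libraries held a count of each gene: 4 for Car1, 2 for Rhd and 2 for Slc4a1, and 6 for each of the others.

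Levels of different genes were compared per length, as CPM per 1000 bases of the longest annotated transcript. In IMP1 libraries Car2 led with a median of 2478, before Blvrb at 35.6, Tfrc at 14.2, Car1 at 12.2, Klf1 at 3.65, Ermap at 0.728, Alas2 at 0.672, Rhd at 0.181 and Slc4a1 at 0. In Control libraries Car2 led with 2281, before Blvrb at 52.1, Tfrc at 4.75, Klf1 at 2.38, Ermap at 0.116 and Alas2 at 0.0389, and Car1, Rhd and Slc4a1 had medians of 0. In both groups the lowest library of Car2 was above the highest of Blvrb, and the lowest of Blvrb above the highest of Tfrc. The next neighbours overlapped in their ranges in the IMP1 group, since Car1 spanned 0.0363 to 123, Klf1 1.03 to 12.4 and Ermap 0.143 to 4.08. In the Control group Klf1, at 1.88 to 8.84, overlapped with Tfrc but not with Ermap, at 0.0696 to 0.141. The order depends on the transcript used. Per length of the shortest coding transcript, the IMP1 medians were 418 for Tfrc, 105 for Blvrb and 39.6 for Car1. Tfrc then stood above Blvrb, but its shortest coding transcript had 166 bases, against 4890 for the longest. That change of order rests on this short transcript.

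The wider red cell membrane list showed which other genes stood apart in IMP1 1. Of its 29 genes, 28 reached 1 CPM in at least 1 library, and 7 of these (25.0%) were at least 5-fold above each of the other 5 libraries in IMP1 1, a cut chosen after the values were seen. Over all 13362 genes that reached 1 CPM this held for 1.03%. In each of the other 5 libraries it held for 0 of the 28 genes, where over all genes it held for 1.06% in IMP1 2, 0.793% in IMP1 3, 0.509% in Control 1, 0.442% in Control 2 and 0.442% in Control 3. Of the 9 erythroid precursor genes, 3 (Car1, Rhd and Ermap) met the cut in IMP1 1 and 1 (Slc4a1) in Control 1.

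Among them were Rhag, Kel, Add2, Tspo2, Epb42 and Sptb, named by that cut and not by the naming rule. Rhag, the Rh-associated glycoprotein that Rh proteins need to reach the surface, stood at 34.3, 0.491 and 4.39 CPM in the IMP1 libraries, against 4.51, 0.435 and 1.00 CPM in the Control libraries. Kel, the Kell blood group protein, stood at 5.54 CPM in IMP1 1 and had 0 counts in the other 5 libraries. Tspo2, a cholesterol-binding protein of erythroid cells, stood at 4.96 CPM in IMP1 1 and also had 0 counts elsewhere. Add2, the beta-adducin of the membrane skeleton, stood at 10.5, 0.188 and 0 CPM in IMP1 libraries and had 0 counts in the Control libraries. These genes were thus low or at 0 outside IMP1 1, with Rhag at a few CPM in IMP1 3 and Control 1.

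**Figure D3:**
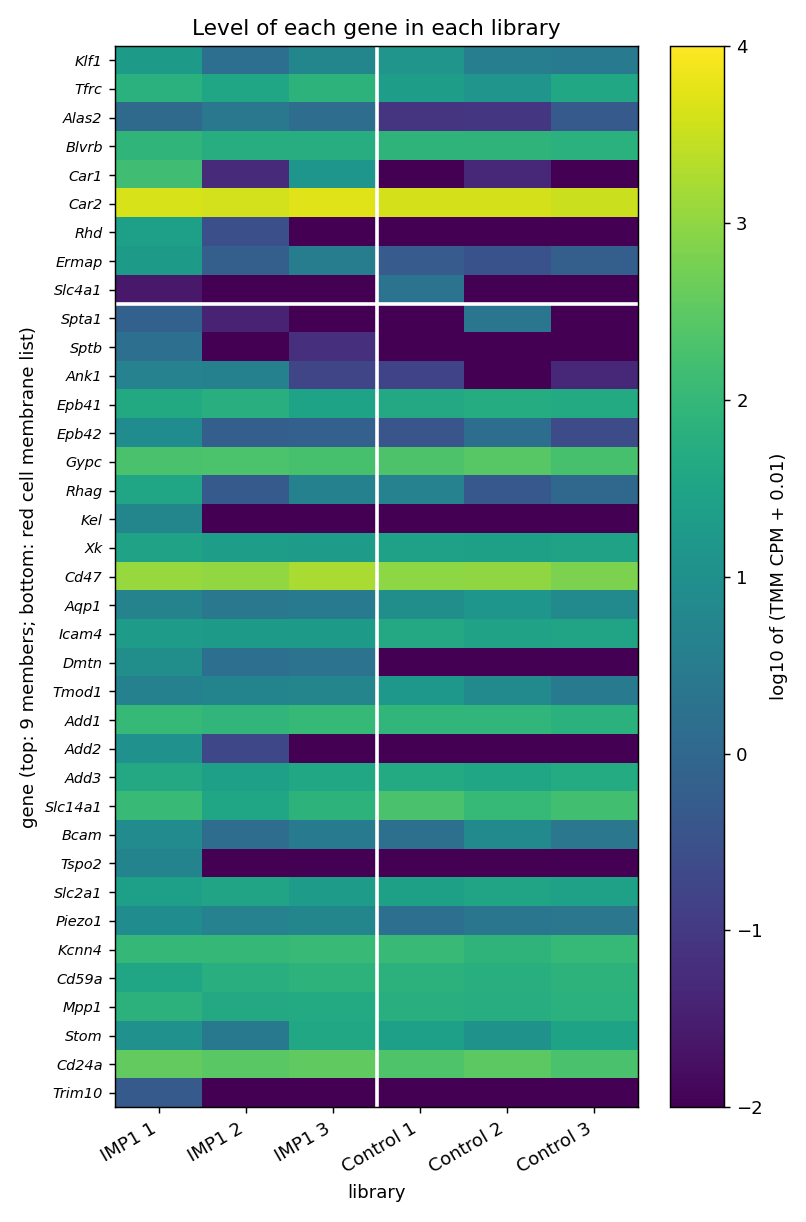
Log10 of TMM CPM plus 0.01 for the 9 erythroid precursor genes (above the white line) and 28 of the 29 genes of the red cell membrane list (below it) in each library, IMP1 left of Control. Kel and Tspo2 have counts in IMP1 1 alone and Add2 is brightest there, whereas Gypc, Cd47 and Cd24a are bright in all 6 libraries.

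In the genotype comparison, 21 of the 29 membrane genes were tested and edgeR called 0. At an unadjusted p under 0.05, 4 were higher and 3 lower, where 6.67% of all tested genes were higher and 7.63% lower. DESeq2 called 3 higher and 1 lower, where it called 2.96% of all genes higher and 6.7% in all. The median log2 fold change was −0.15, beside 0.03 over all tested genes. Dmtn, named outside the rule, encodes the actin-bundling protein dematin. It stood at 9.28, 1.54 and 1.89 CPM in IMP1 1, 2 and 3, and no Control library held a count of it. With 796 counts against the floor of 3 over the Control group, Dmtn was 110-fold higher, with an exact 95% lower counting limit of 89.5. Without IMP1 1 it was 43.3-fold higher, with a lower limit of 34.9 (edgeR adjusted p = 0.0853 with all libraries and 0.179 without IMP1 1). The 2 most abundant genes of the list were Cd47, the signal that shields cells from phagocytosis, at 1346 ± 359 against 879 ± 180 CPM, and Cd24a, the heat-stable antigen, at 333 ± 34.1 against 240 ± 63.9 CPM (IMP1 against Control, SD, n = 3 each). The groups did not overlap for Cd47 and overlapped for Cd24a, and neither passed the threshold (edgeR adjusted p = 0.246 for Cd47 and 0.308 for Cd24a).

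Of 25 erythroid transcription factor and erythropoietin signalling genes, all were tested and 0 were called by edgeR. In IMP1 1, 0 of the 25 met the 5-fold cut, where 1.03% of all genes did, a share too low for so short a list to show a difference. At an unadjusted p under 0.05, 2 were higher and 3 lower, where 6.67% of all tested genes were higher and 7.63% lower. DESeq2 called 1 lower, where it called 6.7% of all genes in either direction. The median log2 fold change was −0.05. The most abundant were Lmo2, a bridging protein of the GATA1 complex, at 541 ± 76.7 against 414 ± 41.7 CPM, and Gata2, a stem and progenitor cell GATA factor, at 418 ± 53.6 against 435 ± 22.7 CPM (IMP1 against Control, SD, n = 3 each). Myb, which sustains progenitor growth, stood at 337 ± 55.9 against 247 ± 42.4 CPM, and Nfe2, a regulator of platelet and globin genes, at 309 ± 35.4 against 415 ± 45.7 CPM (IMP1 against Control). Of these, the edgeR adjusted p was lowest for Nfe2, at 0.197. Gata1, the partner of Klf1 and named outside the rule, stood at 82.04, 10.9 and 24.6 CPM in IMP1 1, 2 and 3, against 106, 90.5 and 70.9 CPM in Control 1, 2 and 3. IMP1 1 lay within the Control range and IMP1 2 and 3 below it (log2 fold change −1.19, SE 0.63, edgeR adjusted p = 0.453). Without IMP1 1 the log2 fold change of Gata1 was −2.33. Epor, the erythropoietin receptor, stood at 12.2, 7.79 and 13.8 CPM in the IMP1 libraries, against 8.68, 18.01 and 20.6 CPM in the Control libraries.

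Most haem synthesis and iron genes outside the 9 had counts well above the floor in every library, but Hmox1, a haem oxygenase, had 1 count in Control 1 and Slc40a1, the iron exporter ferroportin, 1 count in Control 2. All 22 haem genes and all 18 iron genes were tested, and edgeR called 0 of either list. For haem genes 1 was higher and 2 were lower at an unadjusted p under 0.05, and for iron genes 1 was higher and 1 lower. Over all tested genes 6.67% were higher and 7.63% lower at that p. DESeq2 called 0 haem genes, 1 iron gene higher (Ireb2, an iron sensor that stabilises Tfrc mRNA) and 1 lower (Trf, transferrin). It called 6.7% of all genes in either direction. The median log2 fold change was −0.01 for the haem list and 0.05 for the iron list. Ireb2 stood at 75.5, 86.8 and 82.7 CPM in the IMP1 libraries, against 51.2, 41.5 and 54.3 CPM in the Control libraries, with no overlap (log2 fold change 0.74, SE 0.18, edgeR adjusted p = 0.126). Trf stood at 41.8, 23.5 and 30.8 CPM in the IMP1 libraries, against 63.04, 52.2 and 57.9 CPM in the Control libraries, also with no overlap (−0.85, SE 0.26, edgeR adjusted p = 0.203). Both were named by the DESeq2 call, outside the rule.

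The most abundant genes of these lists did not pass the threshold. The ferritin chains Fth1 and Ftl1, which store iron, had log2 fold changes of 0.10 and −0.07. Ncoa4, which delivers ferritin for breakdown, had −0.25, and Pcbp2, which carries iron to ferritin, −0.13. Among abundant haem genes, Pgrmc1, a haem-binding membrane protein, had 0.34, Hmox2, a haem oxygenase, −0.28, Tmem14c, a porphyrin transporter, −0.30 and Urod, the decarboxylase of the pathway, −0.40. Every IMP1 library was below every Control library for Urod, at 91.8 to 100.5 CPM in IMP1 and 108 to 147 CPM in Control libraries. The edgeR adjusted p of these 8 genes lay between 0.305 and 0.661.

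Of 19 late red cell enzymes and clearance genes in the table, 16 were tested. EdgeR called 0. At an unadjusted p under 0.05, 4 of them were lower and 0 higher, where 7.63% of all tested genes were lower and 6.67% higher. DESeq2 called 3 lower, where it called 6.7% of all genes in either direction. The median log2 fold change was −0.24. Gpx1, a glutathione peroxidase, stood at 1384, 1184 and 1346 CPM in IMP1 libraries, against 1707, 1813 and 1803 CPM in Control libraries (−0.44, SE 0.08, edgeR adjusted p = 0.0760). Prdx2, a peroxiredoxin abundant in red cells, had a log2 fold change of −0.23 (adjusted p = 0.296). Pklr, the red cell and liver pyruvate kinase, had a level of 4.52 CPM in IMP1 1 and 0 counts in the other 5 libraries, and is named by the 5-fold cut. Over relatives of the 9 genes in the anion exchanger, Rh, butyrophilin, biliverdin reductase, 5-aminolevulinate synthase and transferrin receptor families, 8 of 17 were tested and 0 were called, with a median log2 fold change of 0.08. At an unadjusted p under 0.05, 1 of these was lower in edgeR (Blvra, biliverdin reductase A, at 68.3, 60.3 and 68.8 CPM in IMP1 libraries, against 89.9, 75.5 and 115 CPM in Control libraries), and DESeq2 called 0. Tfr2, the second transferrin receptor, stood at 58.9, 78.3 and 62.1 CPM in the IMP1 libraries, against 68.5, 54.9 and 64.7 CPM in the Control libraries.

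**Figure D4:**
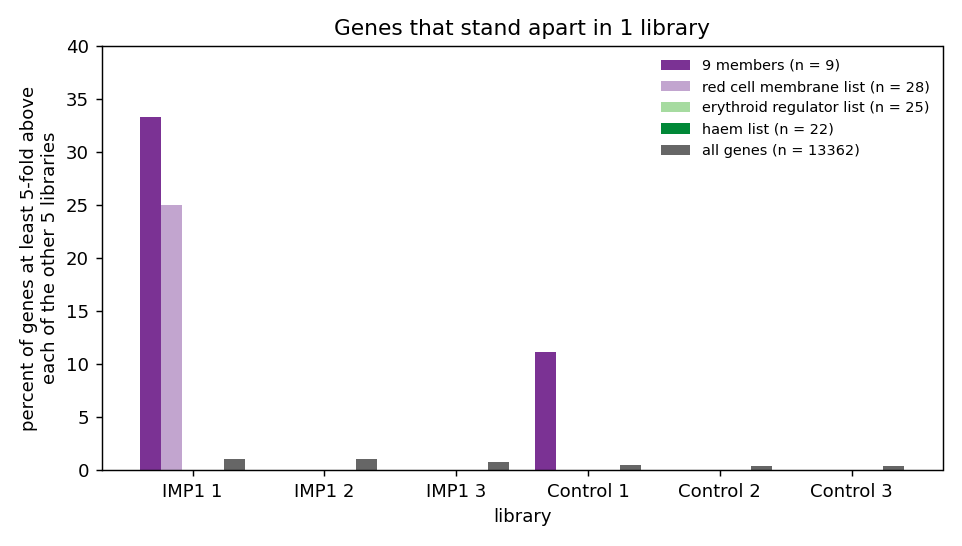
Percent of genes, among those that reach 1 CPM in any library, that are at least 5-fold above each of the other 5 libraries, for each library (IMP1 left of Control) and gene list. In IMP1 1 this holds for 33.3% of the 9 erythroid precursor genes and 25.0% of the red cell membrane list, beside 1.03% of all genes.

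Of the globins, 3 were tested and all 3 had positive log2 fold changes, with a median of 1.89. EdgeR called 1 higher in IMP1 cells (Hbb-b1, adjusted p = 0.0448, and 0.125 without IMP1 1), and DESeq2 called 2 (Hbb-b1 and Hbb-bs). Hba-a2 stood at 96.7, 2.86 and 2.91 CPM in IMP1 1, 2 and 3, against 8.42, 7.64 and 0.881 CPM in Control libraries, while Hbb-b1 stood at 51.5 to 76.4 CPM in IMP1 and 13.6 to 19.3 CPM in Control libraries, and near-identical globin copies make these assignments uncertain.

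The genes closest to Car1 in profile over the 6 libraries, among 13197 genes with at least 100 counts, were Atp1b2, Wfdc18, Brsk1, Tex45 and Rffl, with Pearson's r from 0.988 to 0.997. Of these Rffl was expressed in all libraries, at 38.4, 14.7 and 28.9 CPM in IMP1 1, 2 and 3 against 13.1, 16.9 and 12.6 CPM in Control 1, 2 and 3. The other 4 were at 0 in the Control libraries and highest in IMP1 1, at 1.29 to 4.0 CPM. Closest to the mean profile of the 6 tested genes were H1f3, Ripor3, Meis3, Nipal2 and Syvn1, with r from 0.983 to 0.993. With 6 libraries that share a depth difference, such values describe likeness and give no test.

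The erythroid precursor marker list without Car2 holds 13 genes, of which 8 are genes described above, so its sum is no separate evidence. That sum was 521, 114 and 195 CPM in IMP1 1, 2 and 3, against 240, 207 and 202 CPM in Control 1, 2 and 3. IMP1 1 was highest and IMP1 2 lowest of all 6. In raw counts, not matched for the greater depth of the IMP1 libraries, 0 of these 13 markers were at 0 in IMP1 1. From 1 to 4 were at 0 in the other IMP1 libraries and 3 to 5 in the Control libraries. Slc4a1 was above 0 in IMP1 1 by 1 count. Markers of other cells also differed between libraries. Neutrophil markers (7 genes) summed to 739.8, 499 and 225 CPM in IMP1 1, 2 and 3, against 279.7, 270.5 and 307 CPM in Control libraries. Among them Ltf, the granule protein lactoferrin, stood at 46.2, 2.11 and 0 CPM in the IMP1 libraries, against 0.188, 0 and 0 CPM in the Control libraries. S100a8, a calprotectin subunit, stood at 243, 171 and 11.4 CPM in IMP1 libraries, against 9.47, 12.03 and 5.24 CPM in Control libraries. Other genes of that list ran the other way: Mpo, myeloperoxidase, stood at 0.0314, 0 and 0 CPM in IMP1 libraries, against 25.3, 7.4 and 0.360 CPM in Control libraries, and Prtn3, proteinase 3, at 198 to 213 CPM in IMP1 and 234 to 296 CPM in Control libraries. Markers of dividing cells (8 genes) summed to 760.4, 392 and 627 CPM in IMP1 1, 2 and 3, against 359, 264 and 303 CPM in Control libraries, with no overlap. Megakaryocyte markers (9 genes) spanned 356 to 570 CPM in IMP1 and 361 to 795 CPM in Control libraries. Mast cell and basophil markers (8 genes) spanned 456 to 612 CPM in IMP1 and 407 to 519.8 CPM in Control libraries, almost all of it Kit, which is also a stem cell marker. Fcer1a, a subunit of the IgE receptor, stood at 2.37, 0 and 0 CPM in IMP1 libraries, against 34.7, 24.3 and 21.3 CPM in Control libraries (edgeR adjusted p = 0.246, and 0.0379 without IMP1 1). The list meant for genes the sort selects against (9 genes) spanned 489 to 581 CPM in IMP1 and 565 to 634 CPM in Control libraries. Most of it was Ptprcap and Cd34, with Ptprcap at 309 to 327 CPM in IMP1 and 268 to 335 CPM in Control libraries. Ptprcap encodes a CD45-associated protein, which a sort of CD45.2+ cells does not select against, so this sum says little about other cells. The part of these other cells, of dividing cells and of depth in the differences of the 9 genes was not tested.

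**Figure D5:**
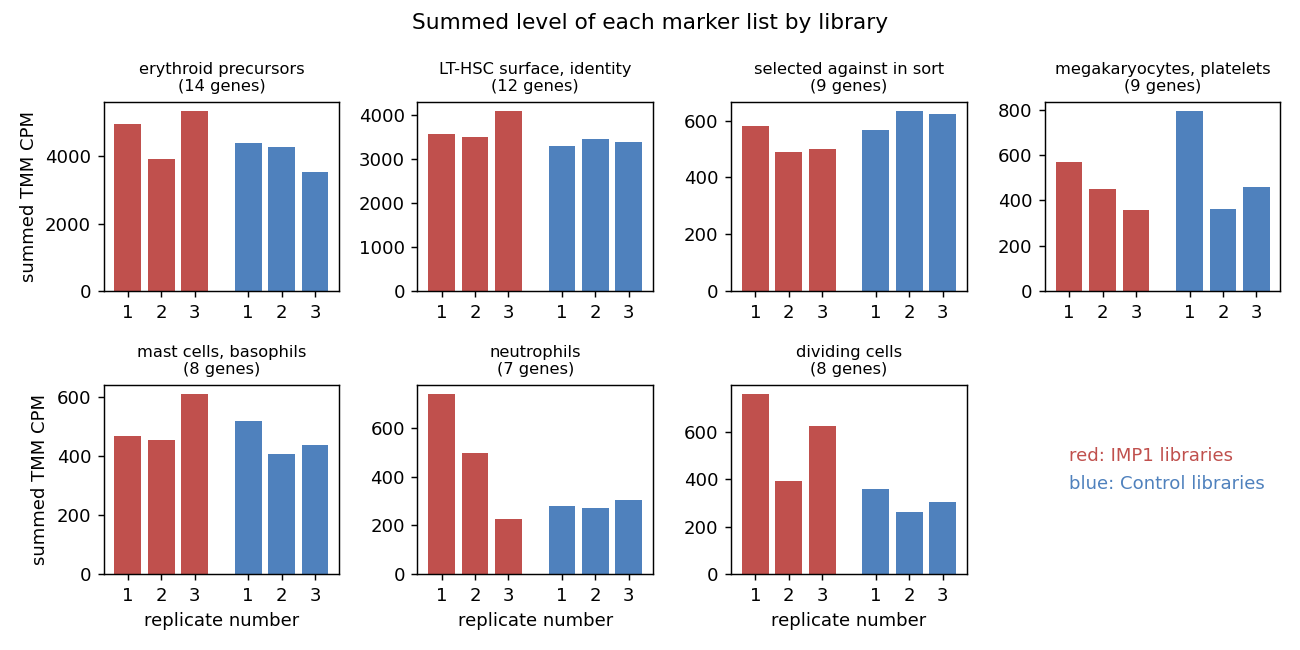
Summed TMM CPM of each marker list in IMP1 libraries 1 to 3 (red, left) and Control libraries 1 to 3 (blue, right), each bar 1 library, with axes from 0. The dividing cell markers lie at 392 to 760.4 CPM in IMP1 and 264 to 359 CPM in Control libraries, and neutrophil markers are highest in IMP1 1.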

How the data were processed

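RNA of sorted LT-HSCs was measured in 6 libraries, 3 per genotype, prepared with a SMARTer Ultra Low kit per the labels' protocols. The deposited table holds counts of reads, not normalized, for 21761 Entrez genes in 6 columns. The submitters' processing notes list TopHat2 2.0.10 and mm9. How reads were counted, with which annotation and strand setting, is not given in the sources used here. Symbols came from a RefSeq table of GRCm38.p6, which matched 21615 identifiers. The build differed from mm9, so no coordinates are given except those of the RefSeq promoter windows.

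Counts were tested with edgeR 4.0.16 in R 4.3.3: TMM scaling, filterByExpr (12807 genes kept), genotype as the single term, Benjamini-Hochberg adjustment over all tested genes, threshold 0.05. Each SE was obtained from the fold change and its F statistic. The fit was tested on simulated counts. Alternatives were DESeq2 1.42.0, limma-voom (limma 3.58.1), other scalings and filters, thinning, removal of a trend on transcript length and GC content (GENCODE M21), the replicate number as a block, and each library left out. Over all tested genes the replicate numbers gave no sign of pairing the libraries, and the labels leave this open. Libraries of a group differed by a chi-square of at least 61.0 per degree of freedom, so none were duplicates.

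The 9 genes, the 8 gene lists, the 7 marker lists and the naming rule were chosen with earlier results of these data known. The rule named the 9 genes, called genes, the 2 or 4 most abundant genes of each list, and the 5 genes closest in profile. Genes outside it are marked. A 5-fold cut between libraries, with levels under 0.1 CPM set to 0.1, was added after the values were seen. Some genes of these lists are not reported here by name.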

Additional observations from a re-analysis of the deposited data

How the results depend on the processing

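Of the 9 genes, edgeR and limma-voom called 0 under every setting run, and DESeq2 called 3 (Car1, Ermap and Tfrc). Among the other erythroid genes of the lists, globins left out, DESeq2 called 10 of 139 in the table, 4 higher and 6 lower. It called 6.7% of all genes with an adjusted p, and 2.96% higher. EdgeR without a low-count filter and without IMP1 1, a setting added after the values were seen, called 1, which was lower in IMP1 cells. That setting called 69 of 16673 genes in all. The main analysis called 0 of these other erythroid genes. Of all tested genes, the main analysis called 27. The count was 896 with DESeq2, 11 with limma-voom, 16 without scaling beyond the library total (9 higher and 7 lower, against 9 and 18), 58 with at least 1 CPM required in 3 libraries, 12 after removing the trend on length and GC content, and 69 without a filter and without IMP1 1. Leaving out 1 library at a time gave 0 to 2 genes. With the replicate block it was 4, and 0 with the block and the trend removed together (1449 genes at an unadjusted p under 0.05). Same-numbered libraries correlated by 0.0149, 0.0310 and −0.00831 in their deviations from the group means. Over all tested genes this gave no sign of pairing, but it cannot exclude a shared donor or day. The block changed no call of the 9 genes. Klf1 turned to −0.90 without IMP1 1 with and without the low-count filter, and ranged from −0.90 to 1.42 with 1 library left out at a time. The other 8 genes kept their direction in every setting that gave them a value. The scaling without TMM moved the median log2 fold change of all genes from 0.03 to 0.12. The cause of these changes was not tested. The shortest coding transcript in place of the longest moved the median level per length in IMP1 libraries to 7549 for Car2, 5.47 for Ermap, 39.6 for Car1, 418 for Tfrc and 105 for Blvrb. For Tfrc that transcript had 166 bases. A count of 0 in a Control library allows up to 0.113 to 0.120 CPM, and in an IMP1 library 0.0433 to 0.0578 CPM.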
